A study of Homo sapiens with 8 samples.

Results

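The mitochondrial protein import machinery was examined in the RNA-seq read counts of MDA-MB-231 cells, an established human breast cancer cell line, and of their ρ0 derivative, with and without arginine starvation. The members were chosen by name: the symbols of the TIMM and TOMM series, together with TIMMDC1, DNAJC15, DNAJC19, GRPEL1, GRPEL2, MTX1, MTX2, SAMM50, PMPCA, PMPCB, CHCHD4 and GFER, provided that at least 10 counts were found in 2 or more libraries. Of 35 symbols that matched, TOMM6 was listed at 0 in all 8 libraries, which left 34 of the 23393 genes in the table. All 34 were among the 15262 genes that passed the filter on low counts and were tested.

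Each of the 4 groups had 2 libraries. The control cells, parental or ρ0, were in high-glucose DMEM with fetal bovine serum. Arginine-starved cells had, by the labels, received arginine deiminase (ADI), an enzyme that degrades arginine, at 0.3 µg/mL for 48 h, while the paper describes a medium made without arginine. The ρ0 cells were of clone 27, a line depleted of mitochondrial DNA (mtDNA) that was kept in ethidium bromide with pyruvate and uridine. MDA-MB-231 cells express little ASS1, an enzyme needed to make arginine, and the study used the ρ0 cells to find which responses to starvation depend on functional mitochondria. Because the ρ0 line is 1 clone with its own maintenance medium, the loss of mtDNA, the choice of clone and the supplements cannot be told apart in any comparison of the lines. The sources do not say whether the 2 libraries of a group came from separate cultures, so p-values measure only the spread between these libraries, which may be technical.

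Nearly all mitochondrial proteins are encoded in the nucleus, made in the cytosol and imported. They enter through the TOM complex of the outer membrane, whose channel is TOMM40 and whose receptors are TOMM20, TOMM22 and TOMM70. From there, the SAM complex inserts β-barrel proteins into the outer membrane, the CHCHD4 and GFER disulfide relay traps small cysteine-rich proteins between the membranes, the small TIM chaperones escort hydrophobic carriers to the TIM22 complex of the inner membrane, and the TIM23 channel with its motor draws presequence proteins into the matrix, where the peptidase PMPCA/PMPCB removes the presequence. Import through the inner membrane needs a membrane potential, which respiration normally maintains, and cells without mtDNA keep up import with a potential made in another way.

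The sequences just before the transcription start are shown for 7 of the 14 members for which the edgeR interaction, the difference between the responses of the lines, was called. These are the 5 most negative of the called differences (TIMM10, TIMM9, TIMM17A, TIMM8A and TIMM22, which rose less in ρ0 cells) and the 2 positive ones (SAMM50 and MTX1, which fell less). Each is the 100 bases that end 1 base before the RefSeq start on GRCh38.p14, read on the gene's strand, 5′ to 3′. For MTX1, 2 starts are listed and the first was used. Capitals mark the letters of 3 motifs that were found in these windows.
TIMM10 (chr11:57530755-57530854, minus strand): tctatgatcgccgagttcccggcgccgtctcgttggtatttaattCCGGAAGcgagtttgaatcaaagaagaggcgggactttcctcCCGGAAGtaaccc
TIMM9 (chr14:58427532-58427631, minus strand): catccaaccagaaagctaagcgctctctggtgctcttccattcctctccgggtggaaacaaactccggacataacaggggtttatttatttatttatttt
TIMM17A (chr1:201955403-201955502, plus strand): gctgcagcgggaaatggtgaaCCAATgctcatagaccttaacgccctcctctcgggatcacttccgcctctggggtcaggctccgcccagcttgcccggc
TIMM22 (chr17:997029-997128, plus strand): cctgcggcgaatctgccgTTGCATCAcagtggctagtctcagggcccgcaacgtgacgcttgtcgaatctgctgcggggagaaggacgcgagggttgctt
TIMM8A (chrX:101348743-101348842, minus strand): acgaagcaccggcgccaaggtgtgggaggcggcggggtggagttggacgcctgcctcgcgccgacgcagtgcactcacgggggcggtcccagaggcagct
SAMM50 (chr22:43955342-43955441, plus strand): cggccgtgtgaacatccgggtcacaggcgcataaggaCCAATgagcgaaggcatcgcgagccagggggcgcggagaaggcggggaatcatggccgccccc
MTX1 (chr1:155208595-155208694, plus strand): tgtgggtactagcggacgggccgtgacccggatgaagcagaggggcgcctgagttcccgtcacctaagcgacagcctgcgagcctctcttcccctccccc
The motifs searched on both strands were CCGGAAG (bound by ETS factors), CCAAT (the CCAAT box), TGATGNAA (the type bound by ATF4 with C/EBP partners) and the NRF1 motif, none of which overlaps another in these windows. TIMM10 had CCGGAAG at bases -55 to -49 and again at -13 to -7. The CCAAT box stood at -79 to -75 in TIMM17A and at -63 to -59 in SAMM50, and TIMM22 held TGATGNAA at -82 to -75, where it reads TTGCATCA because the match is on the other strand. TIMM9, TIMM8A and MTX1 had none of the 4 motifs in the window. Among the 31 members with a RefSeq promoter, CCGGAAG was found in 10, CCAAT in 6, the NRF1 motif in 3 and TGATGNAA in 1. Of all 35116 promoters, 5.61%, 18.1%, 3.41% and 1.34% held them in the same order. A member was counted if any of its listed starts had the motif, whereas these shares are per listed promoter, so the bases differ. These matches describe letters in the window and were not compared with binding data.

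The libraries held between 25259503 and 31022155 counts, and values are given as CPM, the counts scaled to a common library size after TMM scaling of the library totals. The cell line markers VIM, CD44, AXL, CAV1 and MSN were at 100.7 CPM or more in every library, and ESR1, PGR and ESRP1 had no more than 16 counts. CDH1, an epithelial adhesion gene, had 0 to 2 counts in the parental libraries but 457 and 440 counts in the ρ0 controls and 141 and 104 in the starved ρ0 cells. Of the other luminal and melanocytic markers, GATA3 lay between 4.38 and 18.6 CPM and PMEL between 0.277 and 4.14 CPM, and MLANA, TYR and SOX10 had no more than 6 counts. Of the leukocyte genes, PTPRC had no more than 13 counts and CD3E was at 0. The part of these markers in the results was not tested. None of the 13 protein-coding genes of mtDNA was in the table analysed here, so the ρ0 label could not be checked on them.

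The ρ0 control libraries stood apart from each other. Their biological coefficient of variation over tested genes was 25.1%, against 5.16% in parental controls, 2.29% in starved parental cells and 1.84% in starved ρ0 cells. Among the import genes, 22 of 34 differed by more than 25% between the ρ0 control libraries, and 29 of 34 were higher in replicate 2. Replicate 2 was also the higher for 25 of 34 in parental controls, 24 in starved parental cells and 17 in starved ρ0 cells. The matching shares over all tested genes were not computed. TOMM40, the outer membrane channel, had 80.4 CPM in replicate 1 and 154 CPM in replicate 2, and TOMM20, a receptor, had 196 and 329 CPM. No member differed by that much between the parental libraries of either condition, and 1 did between the starved ρ0 libraries. For the medians and the main differences that rest on the ρ0 controls, the values without replicate 1 and without replicate 2 are therefore given as well. With 1 library left, the fit cannot see the spread of that group, so calls under these removals are no check on that spread.

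Import genes took up more of the counts in starved than in control parental cells, whereas their share in starved ρ0 cells lay within the range of the ρ0 controls. Summed over the 34 genes, the level was 2057 and 2118 CPM in parental controls and 3446 and 3515 CPM in starved parental cells. In ρ0 cells, it was 1962 and 2629 CPM in the controls and 2525 and 2518 CPM after starvation, so that the starved values lay between the 2 control values. As shares of all counts, the members made up 0.2214% and 0.2286% in parental controls, 0.3331% and 0.3378% in starved parental cells, 0.1958% and 0.2673% in ρ0 controls and 0.2408% and 0.2406% in starved ρ0 cells. In bulk RNA, a change in the number of cells that express a gene and a change in the RNA per cell cannot be told apart.

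**Figure D1:**
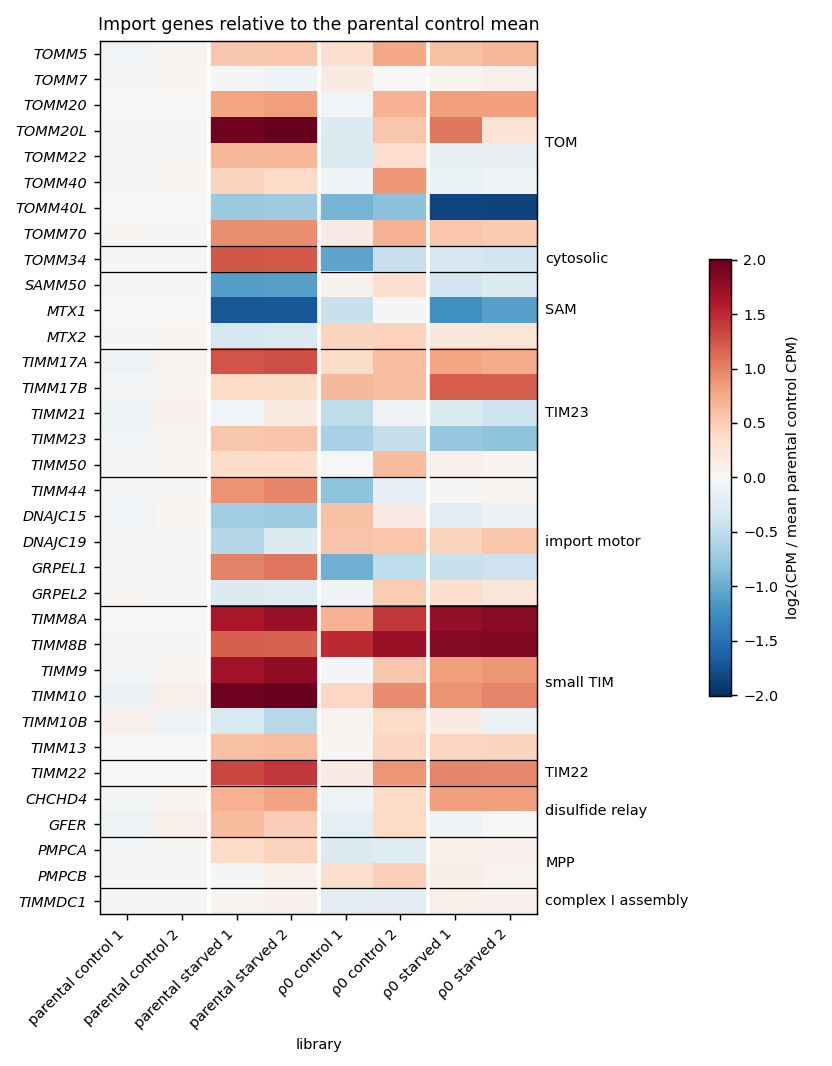
Level of each of the 34 import genes in each of the 8 libraries, as the log2 ratio of its CPM to the mean CPM of the 2 parental controls (colour), with genes in rows grouped by role and libraries in columns. The starved parental columns are red for most genes and bluest for the SAM genes, TOMM40L, DNAJC15, DNAJC19, TIMM10B and GRPEL2. The ρ0 control columns differ from each other.

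Per kilobase of transcript, the most abundant import mRNA in parental controls was that of TOMM34, a cytosolic co-chaperone that hands preproteins to the import pore, at 123 ± 2.88 CPM per kb (mean ± SD, n = 2). The small TOM subunits TOMM7 and TOMM5, which stabilise the channel, followed at 98.9 ± 4.42 and 73.4 ± 3.66 CPM per kb, and TOMM20 at 60.0 ± 0.202. In the annotation, 68.4% of the 50-base stretches of TOMM5 are shared with other genes, most with AL138752.2, which overlaps it on the same strand. AL513165.2 overlaps it on the same strand too, so the level and the changes of TOMM5 are uncertain. TOMM7 was the most constant of these, with 74.5, 79.4, 74.7, 72.2, 86.7, 76.3, 80.1 and 82.9 CPM over the 8 libraries, and was not called in any comparison. At the other end stood DNAJC15, a J-protein linked to the motor, at 5.12 CPM per kb, and TOMM20L, a TOMM20 relative, at 0.883 CPM per kb. TOMM20 and TIMM17A, the neighbours at 60.0 and 55.4 CPM per kb, differed by little more than the SD of TIMM17A (3.77). Levels per kb use 1 transcript per gene of GENCODE v29 and shift with that choice.

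In parental cells, arginine starvation raised most of the machinery and lowered the SAM complex. By edgeR's quasi-likelihood test, 20 members were higher and 7 lower at an adjusted p under 0.05, where 30.4% of all tested genes were higher and 35.5% lower. In all, 79.4% of the members were called, against 65.9% of the tested genes. The median log2 change of the 34 members was 0.56, against -0.07 over all tested genes. With a log2 change of more than 1 in size, 9 members were higher and 2 lower (background 12.7% and 22.1%). The fit shares its spread over all groups, so the ρ0 controls enter the standard errors and calls here too. A fit to the parental libraries alone called 22 members higher and 8 lower, and 5875 and 6167 of its 14509 tested genes. Leaving out a single library kept the direction of every called member here, but some calls near the threshold were lost: TOMM20 and TOMM22 without either parental control, TOMM5 without parental control replicate 1 or starved parental replicate 2, MTX2 without starved parental replicate 1, and DNAJC19, GFER and TIMM10B without any of several libraries. Over these removals the log2 changes were 0.79 to 0.86 for TOMM20, 0.64 to 0.71 for TOMM22, 0.51 to 0.60 for TOMM5, -0.37 to -0.28 for MTX2, -0.56 to -0.28 for DNAJC19, 0.47 to 0.67 for GFER and -0.56 to -0.31 for TIMM10B.

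The small TIM chaperones, which shield hydrophobic precursors between the membranes, had the largest median change of the groups with more than 1 member, 1.44 on the log2 scale, with 5 of 6 higher and 1 lower. TIMM10, which forms a ring with TIMM9, had 23.6 and 27.4 CPM in controls and 98.6 and 100.2 CPM after starvation. TIMM9 had 32.6 and 34.6 CPM in controls and 108 and 115 CPM after starvation. Both partners of the ring were thus more than 3-fold higher with no overlap: TIMM10 rose 3.91-fold (log2 change 1.97 ± 0.17 SE, edgeR adjusted p = 6.07e-05) and TIMM9 rose 3.31-fold (1.73 ± 0.17, edgeR adjusted p = 9.13e-05). TIMM8A, whose loss causes a deafness-dystonia syndrome, went from 10.8 and 10.7 to 33.5 and 35.5 CPM, a log2 change of 1.68 ± 0.21 (edgeR adjusted p = 0.000324). Its relative TIMM8B went from 15.1 and 15.5 to 35.2 and 34.7 CPM, a change of 1.19 ± 0.10 (edgeR adjusted p = 5.42e-05). TIMM13, the partner of TIMM8A in its ring, also rose, by 0.60 on the log2 scale. TIMM10B, which docks the chaperones on TIM22, was the exception, with 26 and 23.2 CPM in controls and 19.8 and 16.7 CPM after starvation (log2 change -0.43 ± 0.16, edgeR adjusted p = 0.0468), and this call was lost under 8 of 18 alternative settings.

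TIMM22, the channel to which these chaperones deliver carriers, had 28.5 and 28.3 CPM in controls and 71.7 and 75.7 CPM after starvation. It rose 2.60-fold (log2 change 1.38 ± 0.20, edgeR adjusted p = 0.000691). In the presequence pathway, 3 of the 5 TIM23 genes rose and none fell. TIMM17A, a subunit of the channel, went from 87.5 and 96.4 to 220.3 and 224 CPM, a log2 change of 1.27 ± 0.10 (edgeR adjusted p = 3.9e-05). TIMM23, the channel protein itself, went from 51.4 and 55.3 to 77.9 and 79.0 CPM, and rose by 0.56 ± 0.09. TIMM17B, the other form of the TIMM17 subunit, rose by 0.38 ± 0.08. TIMM21 and TIMM50, a coupling subunit and the presequence receptor of the channel, had log2 changes of 0.07 and 0.37 and were not called. TIMM50 had 82.5 and 86.4 CPM in controls and 109.4 and 108.9 CPM after starvation, and the ρ0 controls enter its standard error of 0.18.

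Of the motor genes, 2 of 5 rose and 2 fell. GRPEL1, the nucleotide exchange factor of the mitochondrial HSP70, went from 120.4 and 126 to 246 and 260.0 CPM, a log2 change of 1.04 ± 0.14 (edgeR adjusted p = 0.000426). TIMM44, which anchors the HSP70 at the channel, rose by 0.94 ± 0.18. The J-proteins moved the other way: DNAJC15 went from 38.9 and 41.5 to 24.9 and 24.3 CPM (log2 change -0.71 ± 0.14) and DNAJC19 from 11.0 and 10.8 to 7.37 and 8.97 CPM (-0.41 ± 0.13). GRPEL2, a second exchange factor, went from 33.8 and 31.9 to 27.2 and 27.5 CPM, a change of -0.26 ± 0.18, and was not called.

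At the outer membrane, 5 of 8 TOM genes rose and TOMM40L fell. The receptors TOMM70, TOMM20 and TOMM22 rose by 0.93 ± 0.16, 0.82 ± 0.21 and 0.67 ± 0.17 on the log2 scale, and TOMM5 by 0.56 ± 0.14. TOMM40 went from 81.6 and 86.8 to 114.9 and 111.6 CPM, a change of 0.43 ± 0.25, and was not called. The ρ0 controls, at 80.4 and 153.7 CPM, enter that standard error. TOMM40L, a minor form of the channel, went from 33.9 and 33.8 to 20.2 and 20.6 CPM, a log2 change of -0.73 ± 0.09 (edgeR adjusted p = 0.000357). TOMM34 went from 249.6 and 258 to 600.2 and 598 CPM and rose 2.36-fold (1.24 ± 0.17, edgeR adjusted p = 0.000497).

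TOMM20L had a fitted log2 change of 1.96 ± 0.35 (edgeR adjusted p = 0.0017) from few reads, 18 and 16 counts in controls and 53 and 62 after starvation. Its exons overlap those of TIMM9 on the other strand, and its counts were between 1.07% and 1.95% of the TIMM9 counts over the 8 libraries. Whether the counting used strand is not given in the sources used here, so reads of the 2 genes cannot be told apart. The same holds for other members with an antisense neighbour in the table. KIAA0586, which overlaps TIMM9, had between 50.2% and 183% of its counts and a parental log2 change of 0.40. ABR, which overlaps TIMM22, had 161% to 505% of its counts and a change of 0.06, and PQBP1, which overlaps TIMM17B, had 116% to 215% and a change of 0.57. NR1I3, which overlaps TOMM40L, had 3.13% to 15.5% of its counts and a change of 1.05, opposite in sign to TOMM40L. In the annotation, 50-base stretches shared with other genes made up 23.0% of TOMM40, 13.3% of TIMM10B, 13.2% of DNAJC19 and 10.8% of TIMM13. TIMM10B and TIMM13 also overlap AC084337.2 and LMNB2, in that order, on the same strand. The part of these neighbours and shared stretches in the members' values was not tested.

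All 3 SAM genes among the members fell in parental cells. MTX1, a metaxin of the outer membrane, had 17.0 and 17.2 CPM in controls and 5.23 and 5.25 CPM after starvation. SAMM50, the β-barrel insertase at the core of the complex, had 42.4 and 44.3 CPM in controls and 20.2 and 20.3 CPM after starvation. The groups lay far apart in both genes, with log2 changes of -1.71 ± 0.16 for MTX1 (edgeR adjusted p = 8.44e-05) and -1.10 ± 0.11 for SAMM50 (edgeR adjusted p = 0.000105). MTX2, a second metaxin, fell from 58.8 and 62.5 to 47.4 and 49.4 CPM, by 0.32 on the log2 scale. A further metaxin, MTX3, is not a member. It went from 78.1 and 67.9 to 59.3 and 58.6 CPM (-0.31 ± 0.21) and was not called. In the GENCODE v29 transcripts, 52.6% of the 50-base stretches of MTX1 are shared with the pseudogene MTX1P1, and MTX1 exons overlap THBS3 on the other strand, whose own log2 change was -2.42. SAMM50 overlaps PNPLA3 on the same strand, whose change was -0.99, with 6.0% of its 50-base stretches shared. The part of these overlaps in the SAM values was not tested.

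Both relay genes rose in parental cells, CHCHD4, the oxidoreductase that folds incoming proteins, by 0.76 ± 0.16 and GFER, the oxidase that recharges it, by 0.57 ± 0.19. PMPCA, a subunit of the processing peptidase, rose by 0.43 ± 0.07. Its catalytic partner PMPCB had a change of 0.03 ± 0.09, and TIMMDC1, a TIM17-family protein that assembles complex I and does not import, had 0.07 ± 0.07. Neither of these was called.

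**Figure D2:**
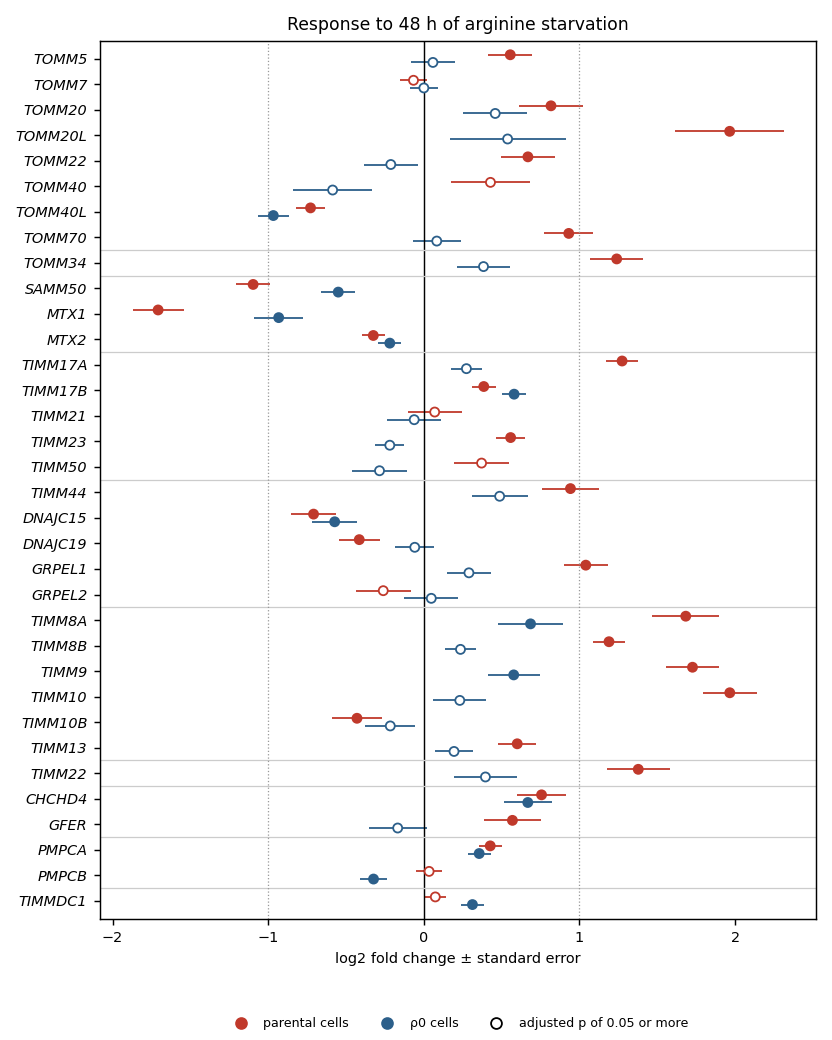
Log2 fold change of each import gene after 48 h of arginine starvation in parental (red) and ρ0 (blue) cells, with the standard error as a bar, n = 2 libraries per group. Filled points have an edgeR adjusted p under 0.05, and the dotted lines mark a log2 change of 1 in size. Parental points lie farthest to the right for TIMM10, TOMM20L, TIMM9 and TIMM8A and farthest to the left for MTX1.

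In ρ0 cells, the same treatment gave fewer calls than in parental cells, among all tested genes (41.3% against 65.9%) as among the import genes. By edgeR, 6 members were higher and 6 lower, where 19.2% of all tested genes were higher and 22.1% lower. The share of members called was 35.3%, against 41.3% of the tested genes. Past the fold threshold, the count was 0 in both directions (background 4.22% and 8.19%). That count changed with the setting: MTX1 and TOMM40L passed the threshold as lower without ρ0 control replicate 1 (-1.13 and -1.02) and under scaling by total counts, and TIMM8A and TOMM20L passed it as higher without replicate 2 (1.10 and 1.05). The median log2 change of the members was 0.07, against -0.02 over all tested genes, but it was -0.03 without replicate 1 and 0.34 without replicate 2, so its sign rested on 1 library. When 1 ρ0 control was left out, calls without the fold threshold became more frequent among all tested genes as well as among the members.

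The members that fell were led by the outer membrane. TOMM40L went from 17.7 and 19.1 to 9.50 and 9.32 CPM, a log2 change of -0.97 ± 0.10 (edgeR adjusted p = 0.000433). MTX1 had 12.6 and 16.8 CPM in controls and 7.30 and 8.08 CPM after starvation (-0.93 ± 0.16, edgeR adjusted p = 0.00335). As in parental cells, all 3 SAM genes were lower, with SAMM50 at 46.2 and 55.0 CPM before and 33.2 and 36.0 CPM after starvation (-0.55 ± 0.11, edgeR adjusted p = 0.00613). MTX2 had a change of -0.22 ± 0.07 (edgeR adjusted p = 0.0498), and 12 of 18 alternative settings lost that call. DNAJC15 went from 60.7 and 45.1 to 34.2 and 36.9 CPM (-0.57 ± 0.14, edgeR adjusted p = 0.0158), and PMPCB fell by 0.32. Without replicate 1 and without replicate 2, the change was -1.02 and -0.90 for TOMM40L, -1.13 and -0.70 for MTX1, -0.67 and -0.41 for SAMM50, and -0.34 and -0.76 for DNAJC15. In the fit to the ρ0 libraries alone, which keeps both controls, TOMM40L and MTX1 were called and SAMM50 and DNAJC15 were not.

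Among the members that rose, TIMM8A had 17.4 and 28.7 CPM in controls and 36.6 and 37.7 CPM after starvation (log2 change 0.69 ± 0.21, edgeR adjusted p = 0.0323). CHCHD4 went from 32.1 and 45.7 to 61.4 and 62.1 CPM (0.67 ± 0.16, edgeR adjusted p = 0.0122). TIMM17B, which varied little between replicates, went from 54.0 and 52.4 to 79.6 and 79.4 CPM (0.58 ± 0.08, edgeR adjusted p = 0.00125). The other rises were TIMM9 by 0.58, PMPCA by 0.36 and TIMMDC1 by 0.31. The changes of TIMM8A, TIMM9 and CHCHD4 depended most on the control library, being 0.37, 0.32 and 0.44 without replicate 1 and 1.10, 0.90 and 0.96 without replicate 2. TIMM8A and TIMM9 were not called when any 1 of the 6 other libraries was left out, CHCHD4, DNAJC15, PMPCA, PMPCB and TIMMDC1 were not called without either starved ρ0 library, and SAMM50 was not called without starved ρ0 replicate 1. TOMM40L, MTX1 and TIMM17B kept the call whichever library was left out.

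The difference between the 2 responses was tested as an interaction, the log2 change in ρ0 cells minus that in parental cells. It addresses whether the starvation response of an import gene depended on the line. By edgeR, 12 members had a lower response in ρ0 cells and 2 a higher one, 41.2% of the members, where 18.8% of all tested genes were called lower and 21.6% higher, 40.4% in all. The share called was thus near that of all genes, and the members differed in direction: their median interaction was -0.43, against 0.02 over all tested genes. It was -0.69 without ρ0 control replicate 1 and -0.25 without replicate 2, negative in both but different by more than 1.5 times.

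TIMM10 had the most negative interaction, -1.73 ± 0.24 (edgeR adjusted p = 0.0019). In ρ0 cells it had 33.8 and 49.3 CPM before and 47.5 and 50.2 CPM after starvation, a change of 0.23 ± 0.17 that was not called. Its partner TIMM9 went from 32.9 and 48.6 to 59.9 and 61.8 CPM, and had an interaction of -1.15 ± 0.23 (edgeR adjusted p = 0.00787). For TIMM17A, the ρ0 values were 119 and 141 CPM before and 159 and 154 CPM after starvation, with an interaction of -1.0 ± 0.14 (edgeR adjusted p = 0.00205). TIMM8B and TIMM23 had interactions of -0.95 ± 0.14 and -0.78 ± 0.13. TIMM23 rose in parental cells and went from 34.0 and 38.4 to 31.6 and 30.6 CPM in ρ0 cells. These 5 genes kept the interaction call under all 17 alternative settings, including the removal of any single library. The interaction of TIMM10 then ranged from -1.98 to -1.47, that of TIMM9 from -1.40 to -0.87 that of TIMM17A from -1.11 to -0.90, that of TIMM8B from -1.06 to -0.86 and that of TIMM23 from -0.86 to -0.71.

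The other lower responses were those of TIMM8A, TIMM22, TOMM22, TOMM34, TOMM70, GRPEL1 and PMPCB. Their interactions were -1.0 for TIMM8A, -0.98 for TIMM22, -0.88 for TOMM22, -0.86 for TOMM34, -0.85 for TOMM70, -0.75 for GRPEL1 and -0.36 for PMPCB. Apart from PMPCB, these were more than 1.5 times as large without ρ0 control replicate 1 as without replicate 2. Without replicate 1 they were -1.31 for TIMM8A, -1.29 for TIMM22, -1.15 for TOMM22, -1.12 for TOMM34, -1.08 for TOMM70, -0.96 for GRPEL1 and -0.42 for PMPCB, and without replicate 2 they were -0.62, -0.60, -0.57, -0.55, -0.58, -0.53 and -0.31 in the same order. The adjusted p of PMPCB was 0.0496 by edgeR, and its call was lost under 11 of 17 alternative settings, among them 2 other scalings, no filter, the replicate block and group weights. In ρ0 cells, TIMM22 had 32.0 and 52.5 CPM before and 55.6 and 55.6 CPM after starvation. TOMM34 had 121 and 183 CPM before and 204 and 194 CPM after starvation, and GRPEL1 had 62.8 and 86.5 CPM before and 90.7 and 91.8 CPM after it. The starved values of TIMM22, TOMM34 and GRPEL1 were above both control values, but none of the 3 changes in ρ0 cells was called. SAMM50 and MTX1 had positive interactions of 0.55 ± 0.15 and 0.77 ± 0.23 (0.43 and 0.58 without replicate 1, 0.65 and 0.97 without replicate 2), a smaller fall in ρ0 cells, and THBS3, which overlaps MTX1, had one of 2.23. TIMM8A, TIMM22, TOMM22, TOMM34, TOMM70, GRPEL1, SAMM50 and MTX1 kept the call under 11 of 17 alternative settings, losing it whenever any 1 of the 6 libraries other than the ρ0 controls was left out. TOMM20L and TOMM40 had interactions of -1.43 and -1.01 that were not called (edgeR adjusted p = 0.0612 and 0.0566). Under other settings that kept all libraries, TOMM40 was called past the fold threshold with no filter and by DESeq2. TOMM20L was so with a filter of at least 10 counts in every library. The ρ0 change of TOMM40 was -0.98 without ρ0 control replicate 1 and -0.03 without replicate 2.

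**Figure D3:**
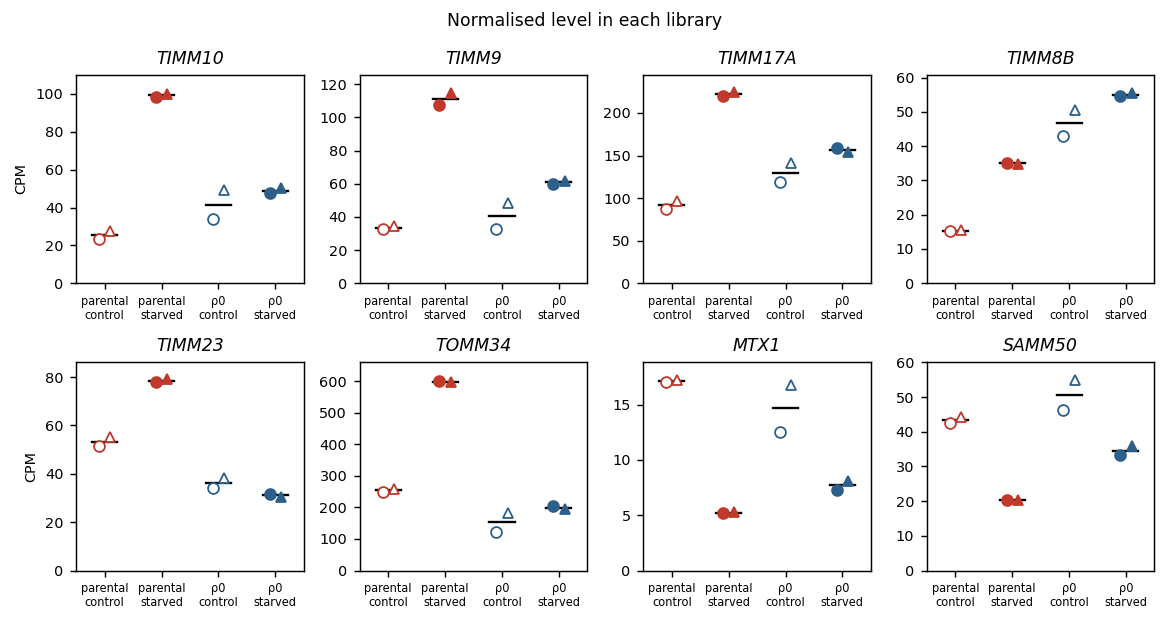
CPM of 8 import genes in each library, with circles for replicate 1, triangles for replicate 2 and a line at the mean of the group (n = 2). TIMM10, TIMM9, TIMM17A and TOMM34 separate the starved parental cells from all other groups, TIMM8B is highest in starved ρ0 cells, and MTX1 and SAMM50 are lowest in starved parental cells.

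In full medium, 12 import genes were higher in ρ0 than in parental cells and 6 lower by edgeR, where 30.5% of all tested genes were higher and 31.8% lower (62.3% in all, against 52.9% of the members). Past the fold threshold, 2 members were higher and none lower (background 13.6% and 17.3%). The median difference was 0.25, against -0.01 over all tested genes. The median of the members was 0.45 without ρ0 control replicate 1 and 0.05 without replicate 2.

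The members past the threshold were the TIMM8 pair. TIMM8B had 15.1 and 15.5 CPM in parental and 43.1 and 50.5 CPM in ρ0 controls, 3.05-fold higher (log2 difference 1.61 ± 0.10, edgeR adjusted p = 1.39e-05). TIMM8A had 10.8 and 10.7 CPM in parental and 17.4 and 28.7 CPM in ρ0 controls (1.10 ± 0.21, edgeR adjusted p = 0.00285). TIMM10 followed with a difference of 0.71 ± 0.17 (edgeR adjusted p = 0.00835), a call lost without parental control replicate 1, and over the removals of single libraries the difference was 0.47 to 0.96. Exons of TIMM8B overlap SDHD, a complex II subunit, on the other strand, whose own difference was 0.88, and PQBP1, the neighbour of TIMM17B, also was higher in ρ0 controls, with 2525 and 3504 counts against 1292 and 1228. Lower in ρ0 controls were TOMM40L (-0.88 ± 0.09, edgeR adjusted p = 0.000154), TOMM34 (-0.74 ± 0.17, edgeR adjusted p = 0.00688) and GRPEL1 (-0.72 ± 0.14, edgeR adjusted p = 0.00294). Both ρ0 control libraries were below both parental controls in each of these 3 genes. Without replicate 1 and without replicate 2, the difference was 1.72 and 1.55 for TIMM8B, 1.42 and 0.75 for TIMM8A, -0.83 and -0.88 for TOMM40L, -0.47 and -1.01 for TOMM34 and -0.51 and -0.92 for GRPEL1. The other members higher in ρ0 controls were TIMM17B, TIMM22, TOMM5, DNAJC19, TIMM17A, TOMM70, MTX2, PMPCB and DNAJC15, by log2 differences of 0.40 to 0.63 (TIMM22 by 0.58, or 0.89 and 0.23 without each replicate), and the other lower ones were TIMM23 (-0.56), PMPCA (-0.26) and TIMMDC1 (-0.22). Of these, TOMM5 was not called without parental control replicate 1, and DNAJC15, PMPCA, TIMM22, TIMMDC1 and TOMM70 were not called without any 1 of at least 4 libraries.

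When both lines were starved, 9 import genes were higher and 12 lower in ρ0 cells, with 32.9% and 33.5% of all tested genes higher and lower (66.5% in all, against 61.8% of the members). Past the fold threshold, the members numbered 0 higher and 6 lower (background 18.7% and 16.8%). Their median difference was -0.23, against -0.01 over all tested genes. The ρ0 controls do not enter these log2 differences, which hardly moved without them (median -0.22 without replicate 1 and -0.20 without replicate 2). They do enter the spread that the fit shares over all groups, and leaving out either one raised the calls among all tested genes as well as among the members.

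The 6 genes past the threshold span cytosolic delivery, the outer membrane, the space between the membranes, the inner membrane and the matrix motor. TOMM34 stood at 600.2 and 598 CPM in parental against 204 and 194 CPM in ρ0 cells, a log2 difference of -1.59 ± 0.17 (edgeR adjusted p = 0.000139). GRPEL1 stood at 246 and 260.0 against 90.7 and 91.8 CPM (-1.47 ± 0.14, edgeR adjusted p = 7.64e-05). TIMM23, at 77.9 and 79.0 against 31.6 and 30.6 CPM, differed by -1.33 ± 0.09 (edgeR adjusted p = 1.65e-05). In the annotation, 17.0% of the 50-base stretches of TIMM23 are shared with TIMM23B, a near-identical gene, so the counts of TIMM23 may include or lack reads of either. TOMM40L and TIMM10 differed by -1.12 ± 0.10 and -1.03 ± 0.17. TOMM20L, at 2.1 and 2.2 against 1.15 and 0.663 CPM, had a difference of -1.22 ± 0.33 (edgeR adjusted p = 0.0127) that ranged from -1.66 to -0.87 and was not called without either starved parental library or without starved ρ0 replicate 2. The other lower members were TIMM44 (-0.90), TIMM9 (-0.87), TOMM22 (-0.83), GFER (-0.61), TIMM17A (-0.50) and PMPCA (-0.33).

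Higher in starved ρ0 cells were DNAJC19, TIMM17B and the 3 SAM members. DNAJC19 had 7.37 and 8.97 CPM in parental and 15 and 16.1 CPM in ρ0 cells (log2 difference 0.93 ± 0.13, edgeR adjusted p = 0.000519). TIMM17B, at 45.6 and 44.3 against 79.6 and 79.4 CPM, differed by 0.82 ± 0.08 (edgeR adjusted p = 7.2e-05), and SAMM50, at 20.2 and 20.3 against 33.2 and 36.0 CPM, by 0.77 ± 0.11 (edgeR adjusted p = 0.000584). The other higher members were TIMM8B (0.66), MTX2 (0.56), GRPEL2 (0.56), MTX1 (0.55), DNAJC15 (0.53) and TIMM10B (0.46). All 5 motor genes were called, DNAJC15, DNAJC19 and GRPEL2 as higher and GRPEL1 and TIMM44 as lower in ρ0 cells. The calls of GFER and GRPEL2 were lost without any 1 of the 4 starved libraries, and those of DNAJC15, MTX1, PMPCA and TIMM10B without any 1 of at least 3 libraries. The lines compared in full medium and under starvation share no library with each other, but each shares libraries with the responses above, and the values are therefore set side by side without a test of overlap.

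**Figure D4:**
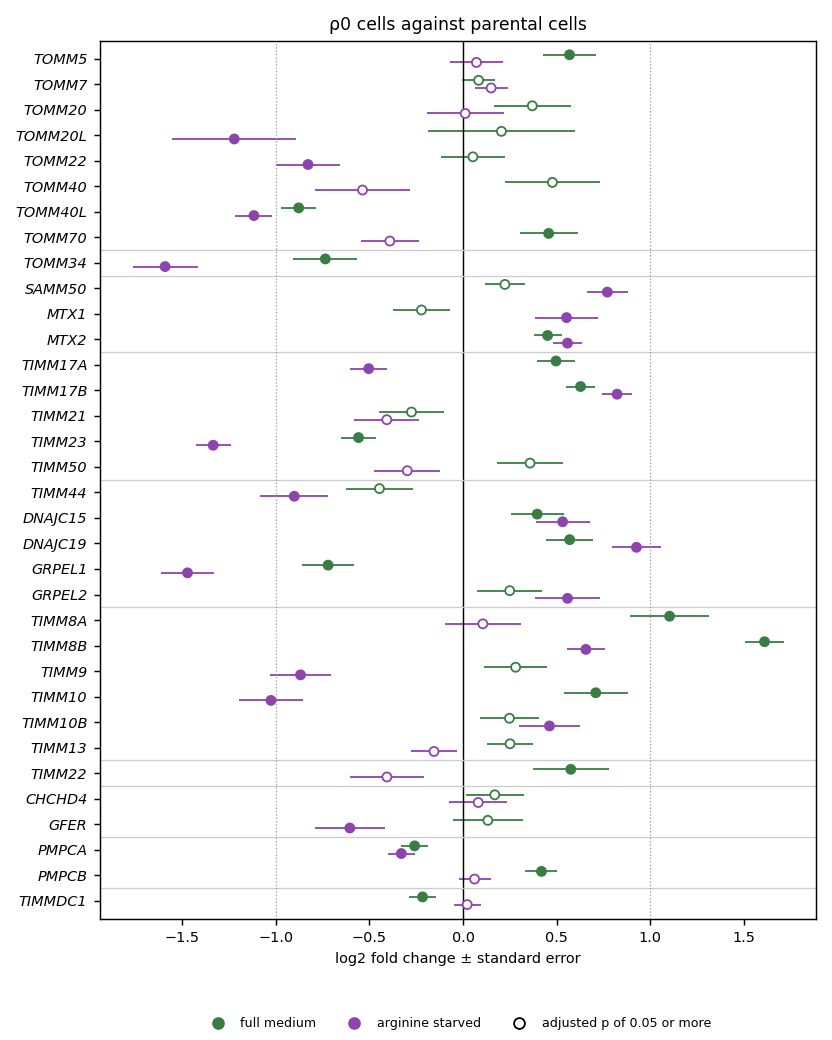
Log2 fold change of ρ0 against parental cells for each import gene in full medium (green) and under arginine starvation (purple), with the standard error as a bar, n = 2 libraries per group. Filled points have an edgeR adjusted p under 0.05. TIMM8B lies farthest to the right in full medium, and TOMM34, GRPEL1 and TIMM23 lie farthest to the left under starvation.

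Several subunits exist as 2 related genes, and their balance within a library does not depend on scaling. The log2 ratio of TIMM17A to TIMM17B counts was 1.39 and 1.44 in parental controls, 2.27 and 2.34 in starved parental cells, 1.14 and 1.43 in ρ0 controls and 1.0 and 0.96 in starved ρ0 cells. Starvation thus moved the ratio toward TIMM17A in parental cells, by 0.89, and the starved ρ0 ratios lay below both of their controls. The ratio of GRPEL1 to GRPEL2 was 1.83 and 1.98 in parental controls and 3.17 and 3.24 after starvation, and it was 1.01 and 0.89 in ρ0 controls and 1.12 and 1.23 after starvation. For TOMM40 to TOMM40L, the ratio moved from 1.27 and 1.36 to 2.50 and 2.44 in parental cells, whereas the ρ0 controls, at 2.18 and 3.01, differed from each other by more than they did on average from the starved cells at 3.02 and 3.08. The mean ratio of TIMM8A to TIMM8B shifted by 0.49 in parental cells and also by 0.49 in ρ0 cells, but the ρ0 controls, at -1.31 and -0.81, were themselves that far apart, with the starved ρ0 cells at -0.58 and -0.56. MTX1 to MTX2 shifted by -1.38 in parental and -0.70 in ρ0 cells, and DNAJC15 to DNAJC19 by -0.29 and -0.50. These ratios are descriptive and were not tested.

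**Figure D5:**
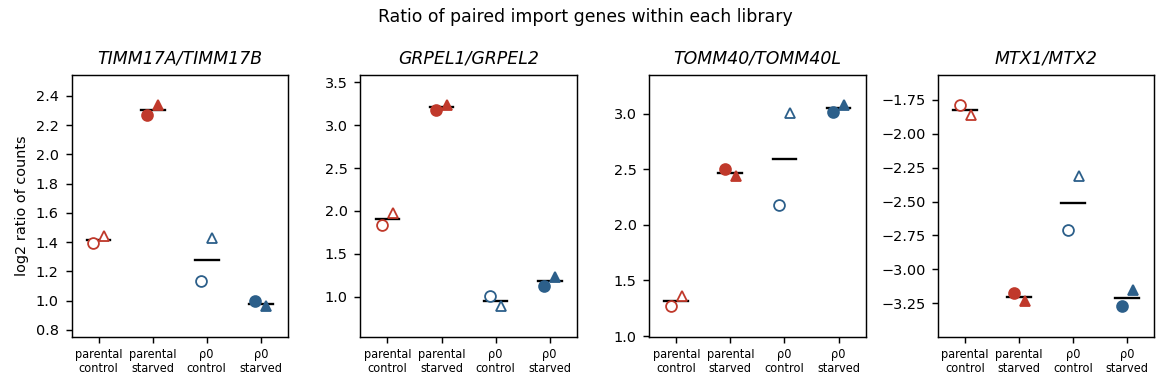
Log2 ratio of the counts of paired import genes within each library, with circles for replicate 1, triangles for replicate 2 and a line at the mean of the group (n = 2). The vertical axes differ between panels and do not start at 0. The TIMM17A/TIMM17B and GRPEL1/GRPEL2 ratios are highest in starved parental cells.

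A further list held 31 import partners outside the member rule, of which 30 were in the table and tested. In parental cells, 10 were higher and 9 lower after starvation (63.3% called, against 65.9% of all tested genes), and in ρ0 cells 7 were higher and 8 lower (50% against 41.3%). Between the lines, 8 were higher and 7 lower in full medium (50% against 62.3%) and 6 higher and 11 lower under starvation (56.7% against 66.5%), and the interaction was called for 1 higher and 8 lower (30% against 40.4%). Their median log2 change was 0.11 in parental and -0.10 in ρ0 cells. Without ρ0 control replicate 1 and without replicate 2, their median ρ0 change was -0.15 and 0.05. The median interaction of the partners was then -0.14 and 0.01, and their median difference in full medium 0.14 and 0.11. HSPA9, the mitochondrial HSP70 that drives the motor, rose in both lines, from 415 and 415 to 868 and 891 CPM in parental cells and from 364 and 569 to 962 and 972 CPM in ρ0 cells. Its log2 changes were 1.08 ± 0.18 and 1.05 ± 0.18 (edgeR adjusted p = 0.00133 and 0.00356), with an interaction of -0.03. Without replicate 1 and without replicate 2, the ρ0 change of HSPA9 was 0.77 and 1.42 and its interaction was -0.31 and 0.30, opposite in sign. Its escort DNLZ rose by 1.66 in parental and 0.75 in ρ0 cells. PAM16, a motor subunit at 0.624 to 2.77 CPM, rose by 1.15 and 0.91 and had a difference of -1.07 between starved ρ0 and starved parental cells. Its ρ0 change was 0.76 without replicate 1, where it did not pass the test, and 1.07 without replicate 2, and that of DNLZ was 0.60 and 0.97.

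Of the outer membrane partners, ATAD1, an ATPase that extracts mislocalised tail-anchored proteins, went from 77 and 70 to 229.9 and 233 CPM in parental cells (log2 change 1.66 ± 0.09, edgeR adjusted p = 1.04e-05) and from 56.5 and 62.6 to 113 and 109.9 CPM in ρ0 cells, with an interaction of -0.75. MTCH1, a relative of the outer membrane insertase MTCH2, stood at 1116 and 1179 CPM in parental and 415 and 352 CPM in ρ0 controls, a log2 difference of -1.58 ± 0.10, and at -2.16 ± 0.10 under starvation. Of the peptidases, IMMP1L fell in both lines, by 1.37 and 1.33. IMMP2L, with 1.18 and 2.64 CPM in the ρ0 controls, differed between the lines by -1.50 in full medium (-1.04 and -2.14 without each of them) and by -1.10 under starvation, and PITRM1, which degrades cleaved presequences, by 1.20 and 1.03. Of the MICOS genes, which shape the cristae, MINOS1 had an interaction of -1.30 ± 0.17 (edgeR adjusted p = 0.00155), or -1.12 and -1.47 without each ρ0 control, and a difference of -1.33 between the starved lines, and C19orf70 was higher by 1.12 in starved ρ0 cells. HSPA8, a cytosolic chaperone that delivers precursors, was higher by 1.05 in ρ0 controls (1.33 without replicate 1 and 0.75 without replicate 2). No partner other than these 11 passed the fold threshold in any comparison.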

How the data were processed

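The data were RNA-seq counts of 8 libraries, 2 per group. The authors deposited them as a single table of raw counts, with a row for each gene symbol and no normalization. The submitters' processing notes name Bowtie, Partek and hg19 without roles or versions, and the annotation and strand setting are not given in the sources used here.

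The edgeR package (4.0.16, in R 4.3.3) was used with filterByExpr, TMM and the quasi-likelihood test. The 4 group means were fitted together over the 8 libraries (residual degrees of freedom 4, prior 3.40, common biological coefficient of variation 12.4%). P-values were adjusted by Benjamini-Hochberg over the 15262 tested genes. Members were called at an adjusted p under 0.05, and the fold threshold of the study, a log2 fold change of 1 in size, is given beside. Standard errors were obtained as the size of the log2 change over the root of its F statistic. Members, roles, partners and tests were chosen with earlier results of these data known, so no list was tested as a whole. Values per library are given for members past the fold threshold in any comparison and for the 3 largest rises and falls called in each. Partners are named where they passed the fold threshold, and MTX3 is named beside the member metaxins. Other members are given beside their complex, and genes that overlap a member were added after values were seen.

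Replicate numbers did not pair the samples: deviations of same-numbered libraries correlated between -0.05 and 0.04 across genes for the 6 pairs of groups, so no block was used. Alternatives were other scalings, filters, DESeq2 1.42.0, limma-voom (limma 3.58.1), a replicate block, fits to 1 line, the fold threshold and the removal of each library in turn. Group weights in limma-voom were added after seeing the data. Partner values without each ρ0 control and the fold threshold under the other settings were also added then. The fits were tested on simulated counts drawn with the same spread in every group, so that test does not cover the unequal spread of these groups. Promoters came from the RefSeq table for GRCh38.p14 (31 of 34 members matched), and transcript lengths, exon overlaps and stretches of 50 bases shared with other genes from GENCODE v29. Neither was used for counting. With 2 libraries per group, precision is limited, and how much of this comes from depth was not tested.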

Additional observations from a re-analysis of the deposited data

Results flagged for a closer look

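The starvation responses of 14 members differed between the lines by the interaction test of edgeR at an adjusted p under 0.05. In units of log2, the response was lower in ρ0 cells by an interaction of -1.73 for TIMM10, -1.15 for TIMM9, -1.0 for TIMM17A, -1.0 for TIMM8A, -0.98 for TIMM22, -0.95 for TIMM8B, -0.88 for TOMM22, -0.86 for TOMM34, -0.85 for TOMM70, -0.78 for TIMM23, -0.75 for GRPEL1 and -0.36 for PMPCB. It was higher by 0.55 for SAMM50 and 0.77 for MTX1, genes that fell in both lines and fell less in ρ0 cells. The ρ0 control libraries, which enter each of these differences, differed from each other by more than the replicates of any other group. For PMPCB the adjusted p of edgeR was 0.0496, and the call was lost under 11 of 17 alternative settings. Groups of 2 libraries were too small to be examined for single outlying values.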

How the results depend on the processing

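Of 92 called values of members over the 5 comparisons, 52 kept the call under every alternative and 0 reversed, and 1405 of 1603 alternative values were still called in the same direction. The counts of members called moved with the fold threshold, to 9 higher and 2 lower in parental cells and 0 and 0 in ρ0 cells. They were 2 and 0 between the controls, 0 and 6 between the starved lines and 0 and 3 for the interaction. Of all tested genes, 12.7% and 22.1%, 4.22% and 8.19%, 13.6% and 17.3%, and 18.7% and 16.8% passed it in the same order. That share was not computed for the interaction. The fit to ρ0 libraries alone called 1 member higher and 2 lower, and 1462 and 1665 of its 14127 tested genes. Leaving out each library gave 16 to 23 higher and 4 to 8 lower in parental cells, 1 to 19 and 2 to 15 in ρ0 cells, 7 to 23 and 4 to 10 between the controls, 5 to 10 and 9 to 18 between the starved lines, and 0 to 6 and 5 to 22 for the interaction. The lone library of a group was assumed to vary like the others. Interaction calls became more frequent without 1 of the ρ0 controls and less frequent without any 1 of the other libraries, among all tested genes as among the members. With the replicate block, 20 members were called higher and 6 lower in parental cells, and 7 and 5 in ρ0 cells. It gave 11 and 6 between the controls, 9 and 12 between the starved lines and 2 and 11 for the interaction. Of all 15262 tested genes, it called 4553 and 5343, 2799 and 3116, 4526 and 4772, 4963 and 5027, and 3098 and 2633 in the same order. Group weights, chosen after seeing the data, gave 10 and 18 members between the starved lines. They called 6325 and 6469 of all 15262 tested genes there, against 5024 and 5120 in the main fit. For the interaction, group weights and DESeq2 both gave 2 and 15 members. Of all tested genes, group weights called 3082 and 2699 for it and DESeq2 3253 and 2996. Scaling by total counts moved the median parental change of all tested genes from -0.07 to -0.23 and that of the members from 0.56 to 0.39, and upper-quartile scaling moved them to -0.19 and 0.44. The cause of these moves was not tested. Depth limits TOMM20L and PAM16, which stayed under 3 CPM in all libraries.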
